A study of Homo sapiens with 23 samples.

Results

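The 249 genes described here are the protein-coding genes of GENCODE release 44 on human chromosome 19 whose symbol starts with ZNF followed by a digit. The rule uses their name and position and no measured value. They were taken from 20033 protein-coding genes on chromosomes 1 to 22, X and Y, and they make up 249 of the 1476 on chromosome 19. The study mapped histone acylation by chromatin immunoprecipitation and sequencing (ChIP-seq) in SW480, an established human colorectal cancer cell line. Cells received 10 mM sodium propionate (NaPr) or 1 mM sodium butyrate (NaBu) overnight, or neither. Antibodies were directed against propionylated H3K18 and H4K12 (H3K18pr, H4K12pr) in NaPr cells, against the butyrylated sites (H3K18bu, H4K12bu) in NaBu cells, and against the acetylated sites (H3K18ac, H4K12ac) in all of them. Each of these 10 groups holds 2 replicate libraries, and 3 input libraries of chromatin without antibody, 1 for each treatment, stand beside the 20 immunoprecipitated ones. SW480 is a single tumour-derived line, so each value describes that line under these treatments.

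Most of these genes encode C2H2 zinc finger proteins, DNA-binding factors that arose by tandem duplication and lie in clusters along chromosome 19. Many carry a KRAB domain, which recruits TRIM28 and with it SETDB1, HP1 proteins and the NuRD complex to silence transposable elements and other targets. Their finger array is usually encoded by a single long terminal exon, and that 3' end is known in other cells to carry repressive chromatin placed by ZNF274 and the same TRIM28 machinery. H3K18 and H4K12 acylation, by contrast, is known from active promoters and enhancers.

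The members differed from their chromosome 19 neighbours in build before any mark is considered. Their median length was 26097 bp against 13781 bp for the other 1227 genes, with a median of 4 exons against 7 in the canonical transcript. The median terminal exon was 3338 bp long against 732 bp. The shortest member spanned 3117 bp and the longest, ZNF536, 488696 bp. Members of the list lie in 20 groups of neighbours separated by gaps of more than 500 kb, and 8 groups with at least 10 members hold 225 of them. 3 members are read-through transcripts of adjacent genes and 22 share their start window with another member, so those values are not independent.

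Upstream sequence is shown for members at the ends of the range described below, each as the 200 bases before the annotated start in hg38, 5' to 3' on the gene's strand. In the first 3, capitals mark CpG dinucleotides. ZNF628 (chr19:55476417-55476616, plus strand) and ZNF562 (chr19:9675101-9675300, minus strand) carried a called region within 1 kb of the start in every immunoprecipitated library. ZNF582 (chr19:56393539-56393738, minus strand) carried none there in any of them. Regions touched the printed bases of ZNF628 in 15 of the 20 libraries and those of ZNF562 in 20.
ZNF628: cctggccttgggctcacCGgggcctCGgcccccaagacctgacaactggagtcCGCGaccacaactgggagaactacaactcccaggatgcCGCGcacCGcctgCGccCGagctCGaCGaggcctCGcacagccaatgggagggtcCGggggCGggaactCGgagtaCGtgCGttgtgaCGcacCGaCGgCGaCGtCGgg
ZNF562: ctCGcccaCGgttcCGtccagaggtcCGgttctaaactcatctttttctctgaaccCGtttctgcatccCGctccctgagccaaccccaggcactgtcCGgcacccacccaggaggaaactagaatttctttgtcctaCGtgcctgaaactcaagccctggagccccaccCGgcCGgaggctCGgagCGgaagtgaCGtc
ZNF582: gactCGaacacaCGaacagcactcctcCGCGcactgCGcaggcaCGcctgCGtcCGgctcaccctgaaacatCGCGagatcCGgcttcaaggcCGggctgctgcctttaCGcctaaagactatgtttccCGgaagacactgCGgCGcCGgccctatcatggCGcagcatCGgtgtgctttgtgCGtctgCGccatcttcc
These windows held 23, 13 and 21 CpG dinucleotides respectively, so the count in the unmarked ZNF582 lay between those of the marked genes. ZNF208 (chr19:22010950-22011149, minus strand) and ZNF730 (chr19:23075010-23075209, plus strand) had no region within 1 kb of the start in any immunoprecipitated library either. In these, capitals mark the 8-base word TCCAATCA, which contains the CCAAT box.
ZNF208: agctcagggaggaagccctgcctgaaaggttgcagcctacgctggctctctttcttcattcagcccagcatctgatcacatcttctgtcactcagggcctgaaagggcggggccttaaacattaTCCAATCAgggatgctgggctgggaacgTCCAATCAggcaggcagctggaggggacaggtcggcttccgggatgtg
ZNF730: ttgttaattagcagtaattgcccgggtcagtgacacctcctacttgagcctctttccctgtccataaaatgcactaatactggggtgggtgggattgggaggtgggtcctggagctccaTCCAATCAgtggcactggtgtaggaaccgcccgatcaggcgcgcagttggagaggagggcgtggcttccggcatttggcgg
The word, or its reverse complement TGATTGGA, was the one whose share of 250-base upstream windows in members exceeded that in all other protein-coding genes by the most. It was present in 53 of the 249 members (21.3%), in 1.38% of the 19784 genes outside the list and in 7.89% of ZNF genes on other chromosomes. A match is a description of these letters and not a binding site. The median count of CpG dinucleotides in the 250 bases was 14 in members and 14 in all protein-coding genes.

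The deposited lists held between 8158 and 208823 regions per immunoprecipitated library, and 30386 to 93923 per input. Read depth was not part of the lists and is unknown here, so the number of regions stands in its place. All 2187390 regions ended within their hg38 chromosomes. H4K12ac NaBu replicate 2 was short, with 11680 regions against 88658 in replicate 1. Over the members' start windows most libraries shared more calls with some other library than with their own replicate. H3K18ac NaPr replicate 1 had the same call as H3K18ac untreated replicate 1 in 96.0% of genes, and as its own replicate in 83.9%. H3K18pr replicate 1 had the same call as H4K12ac untreated replicate 2 in 86.7%, and as its own replicate in 77.1%. The lists of the 4 NaBu acetyl libraries carry the control tag of untreated cells in their names, while their labels give 1 mM NaBu, and the labels were followed. Of 7 epithelial markers, KRT8 and KRT18 had a start region in all 20 libraries, EPCAM in 19, CDH1 and VIL1 in 12, CDX2 in 10 and CDX1 in 3. Of 5 markers of other cell types, PTPRC and ALB had one in none, CD3E in 1, PECAM1 in 5 and COL1A1, a collagen gene of mesenchymal cells, in 11.

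The first question was how often a ZNF gene carried a mark at its start. A start window reached 1 kb to either side of the outermost annotated start, and it was called marked where a region overlapped it by at least 1 bp. The share of ZNF genes with a mark was not detectably different from that of their neighbours. H3K18pr regions lay at 153 and 122 of the 249 starts in its replicates (61.4% and 49.0%), against 58.03% and 49.96% of the other chromosome 19 genes. H4K12pr marked 69.5% and 64.7% of members against 68.9% and 57.2% of the others. The 4 propionyl libraries thus reached between 122 and 173 members. The butyryl lists were far shorter: H3K18bu marked 21.3% and 8.43% of members against 23.6% and 17.1% of the others, and H4K12bu 12.9% and 8.84% against 14.3% and 8.56%.

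Acetylation spanned the same range. In untreated cells H3K18ac lay at 70.3% and 72.7% of members against 70.3% and 74.9% of the others, and H4K12ac at 68.3% and 66.7% against 66.99% and 66.2%. In NaPr cells H3K18ac lay at 68.7% and 55.0% of members against 69.1% and 54.7%, and H4K12ac at 26.9% and 22.5% against 26.5% and 21.0%. In NaBu cells H3K18ac lay at 59.8% and 51.4% against 67.3% and 52.6%, and H4K12ac at 41.8% and 18.9% against 40.7% and 18.5%. In every group but H4K12pr, whose replicate 2 was the exception, the replicates differed from each other by more than the members differed from the other genes in either of them. The inputs, which carry no mark, overlapped 12.4%, 4.02% and 22.1% of member starts in NaPr, NaBu and untreated cells, against 9.13%, 3.42% and 20.5% of the others. Whether a mark sits on all cells or on some of them cannot be told apart in such bulk material.

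Over the 20 libraries the share was higher in members in 11 and lower in 9. The mean log2 ratio of members over the others was -0.053, a ratio of 0.964 (exact sign-flip permutation test over the 10 group means, two-sided, p = 0.619, adjusted p = 0.667 over 13 tests). The labels number the controls of untreated cells separately, and the study calls its ChIP-seq replicates experimental. Neither says that replicates came from separate cultures. This p and those below thus measure the spread between libraries, which may be technical. The direction depended on which annotated start was used: with the start of the canonical transcript the mean was 0.094. With only the 8158 strongest regions of every list it was -0.25, with an adjusted p of 0.0127 in the same exact test. Against other genes of 10 to 40 kb it was -0.17 (exact test, adjusted p = 0.0381).

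**Figure D1:**
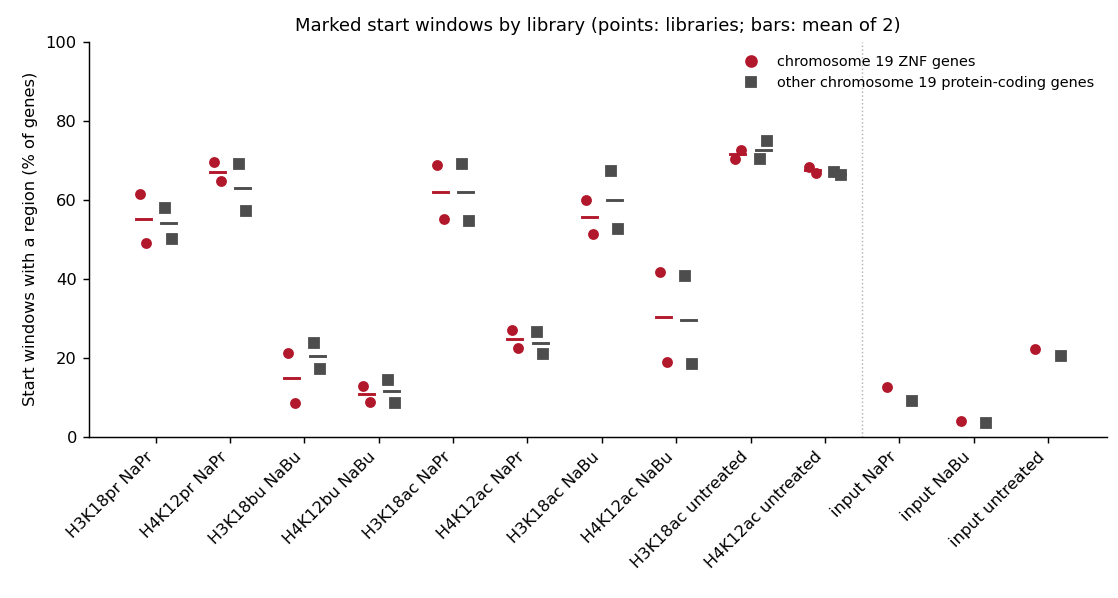
Percentage of genes (y axis) with a region within 1 kb of the start, for the 249 chromosome 19 ZNF genes (circles) and the other 1227 protein-coding genes of the chromosome (squares), by group (x axis). Points are libraries and bars the mean of 2, with the 3 inputs at the right; circles and squares of a group lie at like heights, from 8.43% to 72.7% in members.

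The coverage around the start peaked higher just downstream in ZNF genes and was lower further out in most groups. The share of genes covered by a region was read every 100 bp from 5 kb upstream to 5 kb downstream and averaged over replicates. H4K12pr covered 52.0% of members at its highest point, 300 bp downstream, against 33.5% of the other genes at 300 bp. H3K18ac in untreated cells reached 66.1% of members 200 bp downstream against 52.5%, and H3K18pr 42.4% at 300 bp against 31.0% at 400 bp. The downstream maximum was higher in members in 9 of 10 groups, H3K18bu being the exception. At 2 kb downstream members were lower in 10 of 10 groups: H4K12pr covered 9.04% of members against 18.8% of the others, H3K18pr 3.61% against 10.5% and untreated H3K18ac 3.01% against 14.96%. Upstream maxima were lower in members in 8 of 10 groups, for example 19.48% against 23.96% for H3K18pr. At 2 kb upstream members were lower in 8 of 10, the exceptions being H3K18bu (1.00% against 0.57%) and H4K12bu (0.60% against 0.29%). Single regions at the start did not differ in width in 1 direction: their median width was lower in members in 14 libraries and higher in 6, with 655 bp against 529.25 bp in untreated H4K12ac. Of the inputs, the untreated one rose at the start as well. It covered 8.03% of members and 5.70% of the others there, against 0.80% and 0.98% at 2 kb downstream. The NaPr and NaBu inputs covered 2.01% and 0% of members at the start. All these are descriptions over 2 libraries a group, or 1 for an input, and were not tested.

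**Figure D2:**
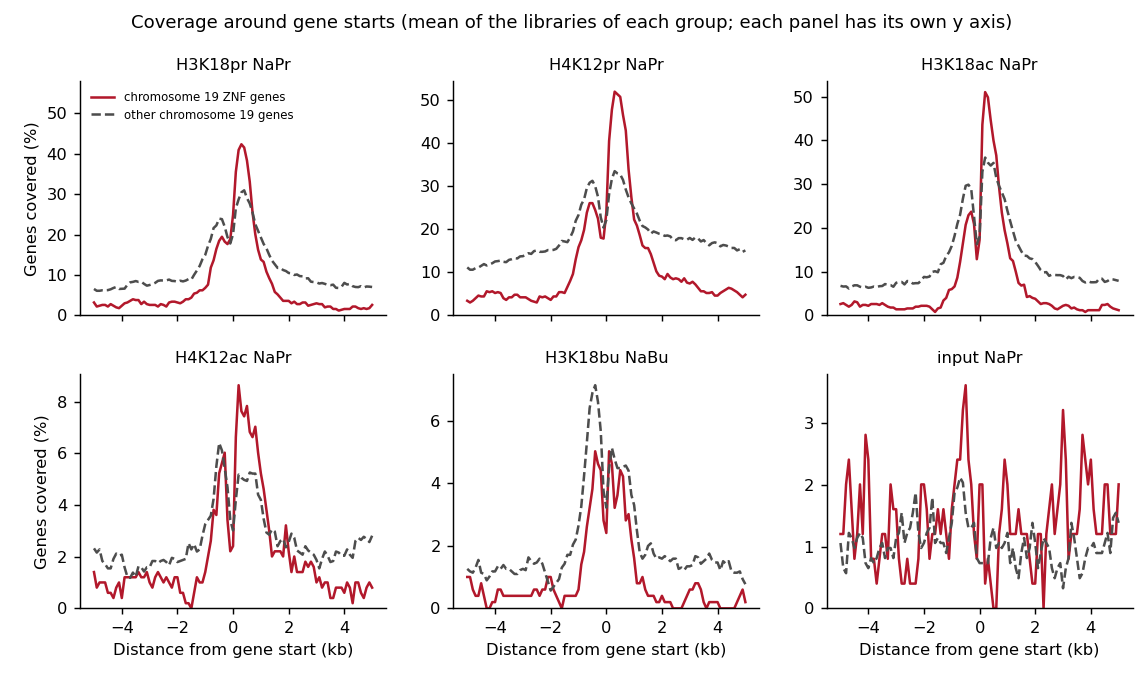
Percentage of genes covered by a region (y axis, own scale in each panel) by distance from the annotated start in kb (x axis) in 6 groups, as the mean of the libraries of a group. In every mark drawn but H3K18bu, the solid line of the ZNF genes peaks higher just downstream of the start than the dashed line of the other chromosome 19 genes. The peaks are 52.0% against 33.5% for H4K12pr, and 5.02% against 5.13% for H3K18bu. At 2 kb downstream the solid line lies below in every mark drawn. The NaPr input has no such peak downstream.

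Members differed widely among themselves. 39 of the 249 (15.7%) had no start region in any of the 20 libraries, against 16.5% of all protein-coding genes and 6.03% of the other chromosome 19 genes. Another 8 (3.21%) had one in all 20, against 2.94% of all genes: ZNF561, ZNF562, ZNF146, ZNF576, ZNF615, ZNF808, ZNF628 and ZNF460. These shares were not tested and depended on the regions used. With the 8158 strongest regions of every list 137 of the 249 members and 682 of the 1227 other chromosome 19 genes had none. Without regions that overlap an input region the members marked in all 20 numbered 5, and the other chromosome 19 genes 17, down from 48. The median member was marked in 11 libraries and the median other chromosome 19 gene in 10. With canonical starts 32 members were unmarked, and 31 of them belonged to the 39. ZNF577 and ZNF565 show the difference: their outermost starts had a region in 0 and 2 libraries, and their canonical starts in 17 and 20. Without H3K18ac NaPr replicate 1 the counts stayed at 39 and 8.

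Position along the chromosome went with these counts. The neighbour group from ZNF101 to ZNF254 (chr19:19668796-24129968), which lies toward the centromere and holds 37 members, had 15 of the 39 unmarked genes and a median of 6 libraries. In the group from ZNF414 to ZNF846 (14 members, chr19:8509678-9793180) 1 member was unmarked and the median was 14.5 libraries. In the group from ZNF575 to ZNF180 (23 members) none was unmarked. The remaining large groups had medians of 10 to 12. H3K18pr lay on 33.8% of starts in the ZNF101 to ZNF254 group and on 73.1% in the group from ZNF653 to ZNF791 (26 members), as means of 2 libraries, and H4K12pr on 51.4% and 78.8%. H3K18ac in untreated cells lay on 55.4% and 78.8%.

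The word shown above in capitals was concentrated in 2 neighbour groups. It was found upstream of 33 of the 37 members from ZNF101 to ZNF254 and of 15 of the 26 from ZNF653 to ZNF791, and upstream of 1 member in the other 6 large groups. Among members with the word 16 of 53 (30.2%) were unmarked, and among those without it 23 of 196 (11.7%). Within the ZNF101 to ZNF254 group the order was the other way, with 12 of 33 unmarked with the word and 3 of 4 without it. None of the 8 members marked in all 20 libraries carried it. The word and the position could not be told apart beyond these counts.

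Among the 8 members marked everywhere, ZNF628 had the highest folds relative to each list. Fold here is the enrichment that the peak caller gave a region at its summit over local background. ZNF628 had folds of 109.5 and 63.5 for H3K18pr and of 24.5 and 26.6 for H4K12pr. Its butyryl folds were lower, with 10.2 and 12.8 in H3K18bu and 9.10 and 7.75 in H4K12bu. In NaBu cells it had acetyl folds of 39.7 and 28.0 at H3K18, with 11.2 and 8.03 at H4K12. In NaPr cells H3K18ac gave 8.38 and 13.02 and H4K12ac gave 4.67 and 4.72. In untreated cells the values were 37.7 and 19.4 at H3K18 and 6.404 and 7.83 at H4K12. Both H3K18pr values lay above those of every other library. In H3K18bu replicate 2, H4K12bu replicates 1 and 2, H4K12ac NaPr replicate 1 and H4K12ac NaBu replicate 2 no region overlapped the ZNF628 body. The folds in these libraries thus belong to regions upstream of the gene. ZNF146, which encodes a protein made almost only of fingers, ranged from 2.45 to 22.6 over the 20 libraries, with 22.6 and 17.1 in H3K18pr and 18.6 in untreated H3K18ac replicate 1. Its H3K18pr regions were 3324 and 2417 bp wide.

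ZNF274, the KRAB factor that binds the 3' ends of other ZNF genes, was marked in 19 of 20 libraries, all but H3K18bu replicate 2. Its folds were 44.1 and 24.02 in H3K18pr, against 26.01 and 32.2 for H4K12pr and 46.6 and 34.3 for untreated H3K18ac. The untreated acetyl and propionyl values of ZNF274 thus overlapped. ZNF91 and ZNF93, which repress SVA and LINE-1 retrotransposons, stood lower. ZNF91 was marked in 11 libraries, with folds of 5.53 and 3.66 in H3K18pr and 10.1 and 12.1 in untreated H3K18ac and none in either butyryl mark. ZNF93 was marked in 2 libraries, at 3.76 in H4K12pr replicate 2 and 2.35 in untreated H3K18ac replicate 2. ZNF331, ZNF382, ZNF582 and ZNF671 are known for promoter methylation in several cancers. ZNF382 and ZNF582 had no start region in any library or input, and ZNF671 had 1, at 2.56 in H4K12ac NaBu replicate 1. ZNF331 had start regions in 5 libraries, with folds between 1.96 and 3.03, and in 2 of the 3 inputs, with folds of 3.38 and 1.91. Its canonical start had a region in 0 libraries.

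Acyl marks were next set against the acetyl mark of the same site and treatment, the comparison the study itself made. A start counted as one-sided where both replicates of one group had a region there and neither of the other did. With 2 libraries a group no single gene can be tested. For H3K18 in NaPr cells 1 member was one-sided for H3K18pr (0.674% of all genes were), and 8 for H3K18ac (4.39% of all genes). The 1 was ZNF765, with folds of 3.97 and 3.84. The 8 were led by ZNF333, with folds of 11.9 and 4.26 in H3K18ac and no start region in any acyl library, followed by ZNF350 and ZNF506. Without H3K18ac NaPr replicate 1 the counts turned to 13 and 9. Leaving out each of the other 3 libraries in turn gave totals of 37 (without H3K18pr replicate 1), 20 (without its replicate 2) and 18 (without H3K18ac replicate 2), most of them for H3K18ac.

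H4K12 in NaPr cells gave the opposite split. 76 members (30.5%) were one-sided for H4K12pr and 0 for H4K12ac, where 18.1% and 0.679% of all genes and 26.4% and 0.570% of the other chromosome 19 genes were. ZNF772 led with folds of 12.99 and 12.99 in H4K12pr, no start region in NaPr H4K12ac and 3.60 and 3.52 in untreated H4K12ac. ZNF497 had 14.4 and 11.4 and ZNF20 13.7 and 9.83. The H4K12ac NaPr lists held 144275 and 130361 regions in replicates 1 and 2, and the H4K12pr lists 165556 and 122532. On chromosome 19 the lists were less alike, with 3630 and 3166 regions for H4K12ac NaPr against 8583 and 5891 for H4K12pr. The H4K12ac NaPr regions covered 44.9 and 38.2 Mb of the genome, and those of H4K12pr 114.5 and 81.6 Mb. The part of list extent in the split was not tested. With the 8158 strongest regions of every list the split was 9 and 2.

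No member start was one-sided for a butyryl mark. 0 members were one-sided for H3K18bu (0.025% of all genes) and 64 for H3K18ac in NaBu cells (21.4% of all genes). 0 were one-sided for H4K12bu (0.0599%) and 12 for H4K12ac (4.64%). ZNF805, with H3K18ac folds of 20.9 and 8.07, and ZNF846, with 16.95 and 9.63, led the first list. ZNF414, with H4K12ac folds of 9.76 and 3.78, led the second, and ZNF432 and ZNF841 followed with 6.05 and 4.38 at a window they share. The butyryl lists held 8158 to 22497 regions and the NaBu acetyl lists 11680 to 116459, so the list lengths move with these counts, and their part was not tested. Leaving out the short H4K12ac replicate 2 raised the 12 to 67, and leaving out H4K12bu replicate 1 or 2 gave totals of 25 and 19. Without H3K18bu replicate 1 the 64 became 98.

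Over the 4 acyl against acetyl pairs the members' start ratio changed by -0.13 on the log2 scale, from -0.0019 for acetyl to -0.13 for acyl libraries (exact permutation test over 4 strata, two-sided, p = 0.344, adjusted p = 0.65). Run here means a shared date tag in the list names, whose meaning the labels do not give. Within the NaBu libraries, which were of 1 run in this sense, the change was -0.29 (exact permutation p = 0.333). The NaPr propionyl and acetyl libraries were of different runs and gave 0.031 (exact permutation p = 0.611), so run and mark cannot be told apart there.

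The treatments were next compared through their acetyl libraries. H4K12ac was called at fewer starts in NaPr cells: 0 members were one-sided for NaPr (0.3% of all genes) and 81 for untreated cells (24.1% of all genes, and 33.1% of the other chromosome 19 genes). In NaBu cells 0 members (0.0599%) were one-sided for NaBu H4K12ac and 60 for untreated (27.2%), or 114 without NaBu replicate 1. H3K18ac moved less. 2 members, ZNF490 and ZNF772, were one-sided for NaPr (0.414%) and 5 for untreated cells (1.3%), namely ZNF446, ZNF493, ZNF492, ZNF765 and ZNF225, named here because the counts are small. For NaBu the counts were 1, again ZNF490 (0.479%), and 19 (6.92%), and they became 2 and 45 without NaBu replicate 1 and 2 and 29 without untreated replicate 1. Without H3K18ac NaPr replicate 1 the H3K18ac counts for NaPr became 4 and 39, and without untreated replicate 1 they became 4 and 15.

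As a ratio to the other genes, the members' starts moved by 0.031 on the log2 scale with NaPr and by -0.032 with NaBu (exact permutation tests, two-sided, p = 0.222 and p = 0.667, adjusted p = 0.65 and 0.667). With 2 strata of 2 against 2 libraries the smallest p these tests can give is 0.0556. The NaBu libraries were of another run than the untreated ones, so treatment and run cannot be told apart there.

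The sites were compared next. The start ratio was lower for H3K18 than for H4K12 in 5 of 5 pairs, by a mean of -0.17 on the log2 scale, from 0.030 for H4K12 to -0.14 for H3K18 (exact permutation test over 5 strata, two-sided, p = 0.00823). After adjustment over the 13 tests it missed the threshold (exact permutation test, adjusted p = 0.0535). The butyryl pair contributed most at -0.53, and the untreated acetyl pair least at -0.041. Without H3K18bu replicate 2, which marked 21 members, the mean was -0.079 and the adjusted p 0.257 in the exact test. The highest adjusted p values were 0.722 and 0.641, without H4K12bu replicate 1 and replicate 2, in the same exact test. It passed without any 1 of 6 other libraries, with adjusted p between 0.0127 and 0.0435 in the exact test: H3K18pr replicate 1, H4K12pr replicate 1, H3K18bu replicate 1, H4K12ac NaPr replicate 1, H3K18ac NaBu replicate 2 and H3K18ac untreated replicate 1.

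Regions covered a smaller part of ZNF gene bodies than of other chromosome 19 gene bodies in 20 of 20 libraries. H3K18pr covered 3.95% and 3.14% of the members' merged bodies against 8.32% and 6.29%, and H4K12pr 5.07% and 3.87% against 16.996% and 10.5%. H3K18ac in untreated cells covered 2.90% and 3.14% against 9.17% and 9.06%, and H4K12ac 2.95% and 2.79% against 9.505% and 8.85%. In these groups no member value reached a value of the other genes. The butyryl marks covered 0.139% to 0.299% of member bodies against 0.392% to 1.35%.

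The ratio of members to others was between 0.200 and 0.499 in the 20 libraries, with a median of 0.331. The mean log2 ratio over the 10 groups was -1.58, a ratio of 0.335 (exact sign-flip permutation test, two-sided, p = 0.00195, the smallest this design can give, adjusted p = 0.0254). It was -1.54 without H3K18ac NaPr replicate 1, with the same adjusted p of 0.0254 in the exact test. Against other chromosome 19 genes of 10 to 40 kb it was -1.68. Against the 266 ZNF genes on other chromosomes it was -0.063 (exact sign-flip permutation test, adjusted p = 0.708), an alternative added after the data were seen. H3K18pr, for example, covered 2.71% and 2.40% of those.

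Sequence and input moved with part of this. Member bodies had a GC content of 43.2% against 51.6%, and 94.7% of their bases began a 50-base word found once on chromosome 19, against 95.2% in the other genes. The input lists went the other way in 2 of 3 cases, covering 1.26%, 0.417% and 0.393% of member bodies in NaPr, NaBu and untreated cells against 0.923%, 0.301% and 0.712% of the others. The part of GC content in the difference was not tested. Of other chromosome 19 genes, 45 overlap a member body and count in both sets.

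**Figure D3:**
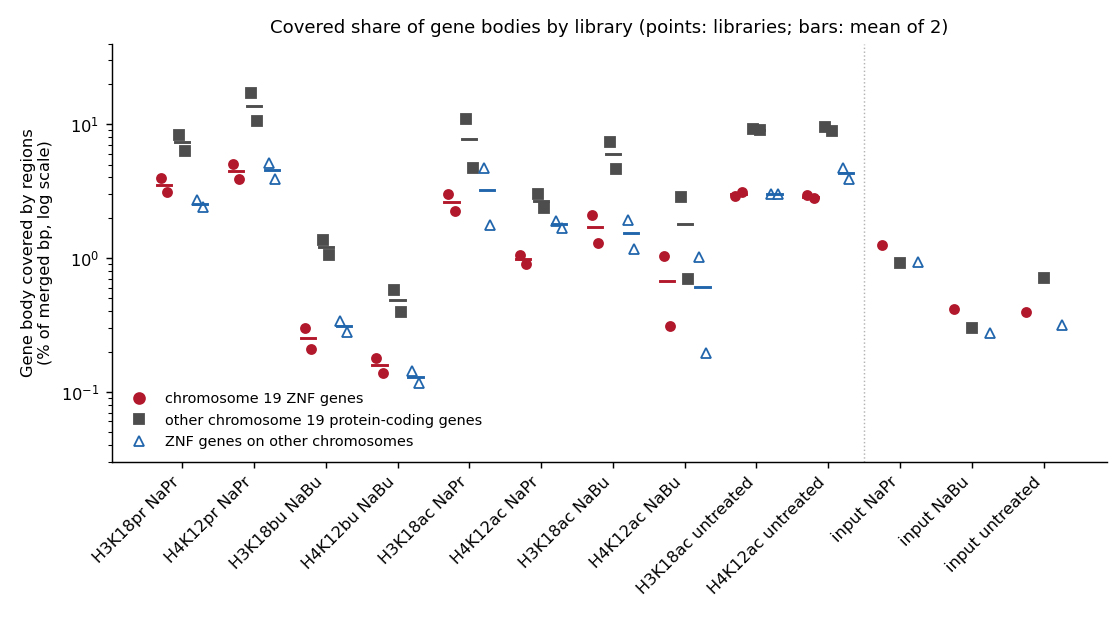
Percentage of merged gene body bp covered by regions (y axis, log scale) in chromosome 19 ZNF genes (circles), other chromosome 19 protein-coding genes (squares) and ZNF genes on other chromosomes (triangles), by group (x axis). Points are libraries and bars the mean of 2; circles lie below squares in all 20 immunoprecipitated libraries and close to the triangles, but above squares in the NaPr and NaBu inputs.

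No difference between acyl and acetyl libraries, sites or treatments passed the test for this body ratio. It was -1.62 for acyl and -1.51 for acetyl libraries on the log2 scale (exact permutation test, p = 0.489, adjusted p = 0.65) and differed by -0.11 between H3K18 and H4K12 (exact permutation test, p = 0.447, adjusted p = 0.65). For NaPr against untreated acetylation it was 0.18 and for NaBu 0.074 (exact permutation tests, p = 0.5 and p = 0.667). Within the NaBu run it was lower for butyryl than acetyl in both sites, by a mean of -0.36, at the smallest exact permutation p of 0.0556. In NaPr cells H3K18pr stood at -1.08 and -1.004, and H3K18ac at -1.88 and -1.06. For NaPr the sign turned without H3K18ac NaPr replicate 2 (-0.024), and for NaBu without H4K12ac NaBu replicate 2 (-0.0051).

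Among single members, ZNF792 had the largest mean body coverage over the 4 propionyl libraries. Its 7876 bp were covered to 53.0% and 25.3% by H3K18pr regions, 39.8% and 20.01% by those of H4K12pr, 36.5% and 41.0% in untreated H3K18ac and 0% in all 4 butyryl libraries. ZNF580 was covered to 18.5% and 21.2% in H3K18pr and 54.1% and 42.2% in H4K12pr, and ZNF575 to 30.3% and 16.7% and 46.8% and 35.0%. These bodies are short, at 7876 to 10634 bp. ZNF91, with 90481 bp, was covered to at most 2.62% in any library.

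The position of regions along the body was read in the 243 members of at least 5 kb, leaving out the first 1 kb after the start. In H3K18pr 39.9% and 42.5% of the members' covered bases lay in the 3' segment, the last of 3 equal parts, against 28.7% and 28.3% in the other genes. H4K12pr, also from NaPr cells and with the same date tag, had 26.4% and 24.5% there against 29.2% and 27.8%. The H3K18pr replicates were thus 11.1 and 14.2 points above the other genes, and the H4K12pr replicates differed from them by -2.78 and -3.26 points. H3K18ac NaPr replicate 2 stood at 40.4%, and replicate 1 at 22.8%. H4K12bu lay 6.29 and 6.84 points above the other genes, H4K12ac in NaPr cells 5.28 and 5.25, and H4K12ac in NaBu cells 5.43 and 1.11. The H4K12bu values rest on 1366 and 1687 covered bp in 3 and 4 members, of which ZNF565 alone held 82.2% and 64.1%. In H4K12ac NaBu replicate 2, with 5 members covered there, it held 43.0%. The 6 libraries of untreated acetylation and of H3K18ac in NaBu cells lay between -3.95 and 0.75 points. H3K18bu replicate 1 lay at -0.75 points and replicate 2 had 43.2% in the segment. ZNF565 alone held 87.6% and 48.4% of the members' covered bases in that segment in these 2 replicates.

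Over the 10 groups the mean difference was 3.52 points (exact sign-flip permutation test, two-sided, p = 0.0762, adjusted p = 0.33). Acyl exceeded acetyl libraries by 3.97 points (exact permutation test, p = 0.412) and H3K18 exceeded H4K12 by 3.24 points (exact permutation test, p = 0.335), with adjusted p of 0.65 in both exact tests. None of these passed with all regions. With the 8158 strongest regions of every list the mean difference was 15.7 points (exact sign-flip permutation test, adjusted p = 0.00846). The inputs lay above the other genes as well, at 37.2%, 33.8% and 33.0% in NaPr, NaBu and untreated cells against 33.4%, 28.8% and 29.03%. Without regions that overlap an input region the mean over groups turned to -1.26 points, and H3K18pr then had 34.6% and 38.5% against 30.5% and 29.4%, a smaller excess in both replicates than with all regions. Over 10 equal parts of the body, H3K18pr covered 3.43% of the first, 2.27% of the fifth and 4.21% of the last in members, and 10.2%, 6.10% and 5.74% in the other genes.

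**Figure D4:**
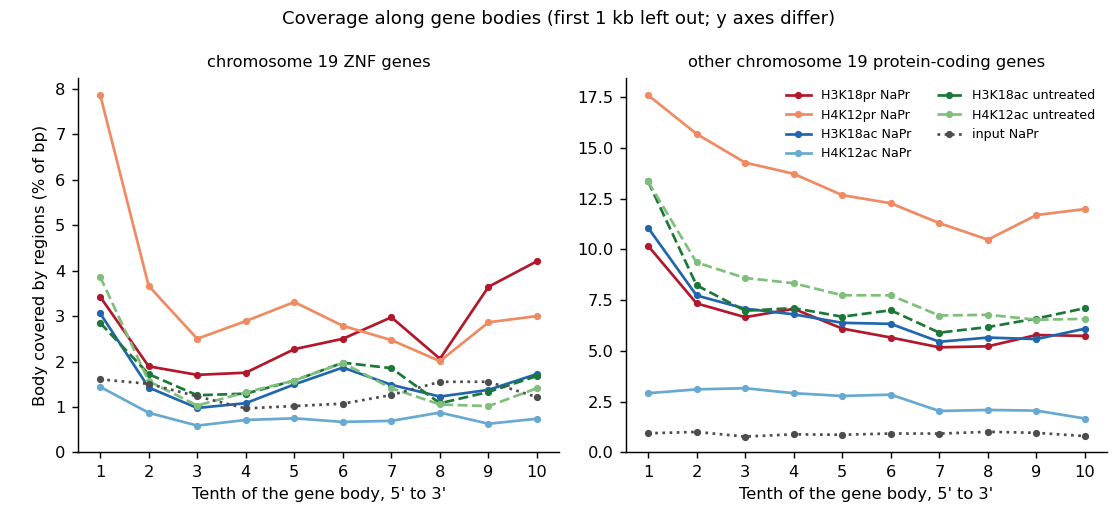
Percentage of body bp covered by regions (y axis, different scales) in each of 10 equal parts of the body from 5' to 3' (x axis), as the mean of the libraries of a group, in 243 ZNF genes and 1022 other chromosome 19 genes of at least 5 kb. In ZNF genes H3K18pr climbs to 4.21% in the last part, the highest line there, while H4K12pr is highest in the first part at 7.88%; the dotted line is the NaPr input.

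The 3' signal was then followed to the terminal exon, where the fingers are encoded. In 240 members that exon lies more than 1 kb from the outermost annotated start of every protein-coding gene, with other annotated starts not checked. H3K18pr had a region there in both replicates in 24 of them (10.0%), against 66 of 1065 other genes (6.20%). H4K12pr had 16 (6.67%) against 157 (14.7%), untreated H3K18ac 5 (2.08%) against 124 (11.6%), and untreated H4K12ac 10 (4.17%) against 124 (11.6%). The members' share also exceeded that of the others for H4K12ac in NaPr cells (7 against 16, or 2.92% against 1.502%) and H4K12bu (1 against 2). These shares count exons with any overlap, and the members' exons are longer, at a median of 3338 bp against 732 bp. Per base, and over the terminal exons of all 249 members and 1227 other genes, regions covered less of the members' exons in 20 of 20 libraries, at 4.26% and 3.48% against 7.85% and 5.83% in H3K18pr. The shares were not tested.

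The inputs bear directly on these counts. The NaPr input alone had regions in 49 of the 240 exons and in 39 of 1065 of the others, the NaBu input in 22 and 14, and the untreated input in 14 and 29. Of the 24 exons 16 had a region in some input. Without regions that overlap an input region H3K18pr kept 16 members (6.67%) and 49 others (4.601%). Member terminal exons had a GC content of 41.2% against 54.8%, and 95.0% of their bases began a 50-base word found once on the chromosome, against 97.1%. The part of repeated sequence in the input regions was not tested.

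ZNF582 was among the 4 of the 24 with no start region in any library. Its terminal exon (chr19:56382751-56385184, 2434 bp) was covered to 100% and 87.5% in H3K18pr, to 69.1% and 45.5% in H4K12pr and to 56.9% in H3K18ac NaPr replicate 2. It was covered to 31.4% in untreated H3K18ac replicate 2 and to 0% in the other 14 libraries and all 3 inputs. The H3K18pr region of replicate 1 ran from 56382284 to 56386124 on chromosome 19, 3841 bp, with a fold of 14.4. A stretch of 168 coding bases under that region, chr19:56384082-56384249 on the minus strand, lies in the finger-coding part. Capitals mark the word ACTGGAGAGAAACC, the most frequent 14-base word of the members' terminal coding exons, which encodes the linker between fingers.
ZNF582: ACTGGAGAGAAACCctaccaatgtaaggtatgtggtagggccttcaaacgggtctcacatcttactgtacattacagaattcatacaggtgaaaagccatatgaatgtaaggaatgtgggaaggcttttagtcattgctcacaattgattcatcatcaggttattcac
The word was found in 150 of the 249 members and in 8 of the 1227 other genes. ZNF208 had 18 copies and ZNF582 1. Of the 24 exons above 11 held it.

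ZNF404, ZNF607 and ZNF420, named after their values were seen, were also covered over more than 50% of the exon in both H3K18pr replicates. ZNF404 had 100% and 57.7% in H3K18pr and 26.04% and 0% in H4K12pr. ZNF607 had 69.4% and 59.1%, and 44.03% and 18.5%. ZNF420 had 56.0% and 53.4%, and 0% and 14.6%. ZNF780B (8367 bp) was covered to 46.6% and 39.0% in H3K18pr and 46.2% and 38.6% in H4K12pr, with folds of 37.8 and 21.6 in H3K18pr. It was also covered in both replicates of the H3K18ac and H4K12ac groups of NaPr and untreated cells, at 14.1% to 44.3%. The ZNF565 exon was covered to at least 69.9% in each of the 20 libraries and to 18.2% in the untreated input. The ZNF565 exon lies 8423 bp from the nearest outermost start of an annotated gene of any type. Those of ZNF404 and ZNF420 lie 17156 and 11272 bp from one. The ZNF607 exon contains the annotated start of a processed pseudogene, and those of ZNF582 and ZNF780B lie 1042 and 2758 bp from one. The ZNF699 exon, covered to 49.6% and 40.5% in H3K18pr, contains the annotated start of a long non-coding RNA gene. Over the 24 exons, H4K12pr had regions in both replicates in 8, untreated H4K12ac in 7, NaPr H3K18ac in 6 and H3K18bu in 1.

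**Figure D5:**
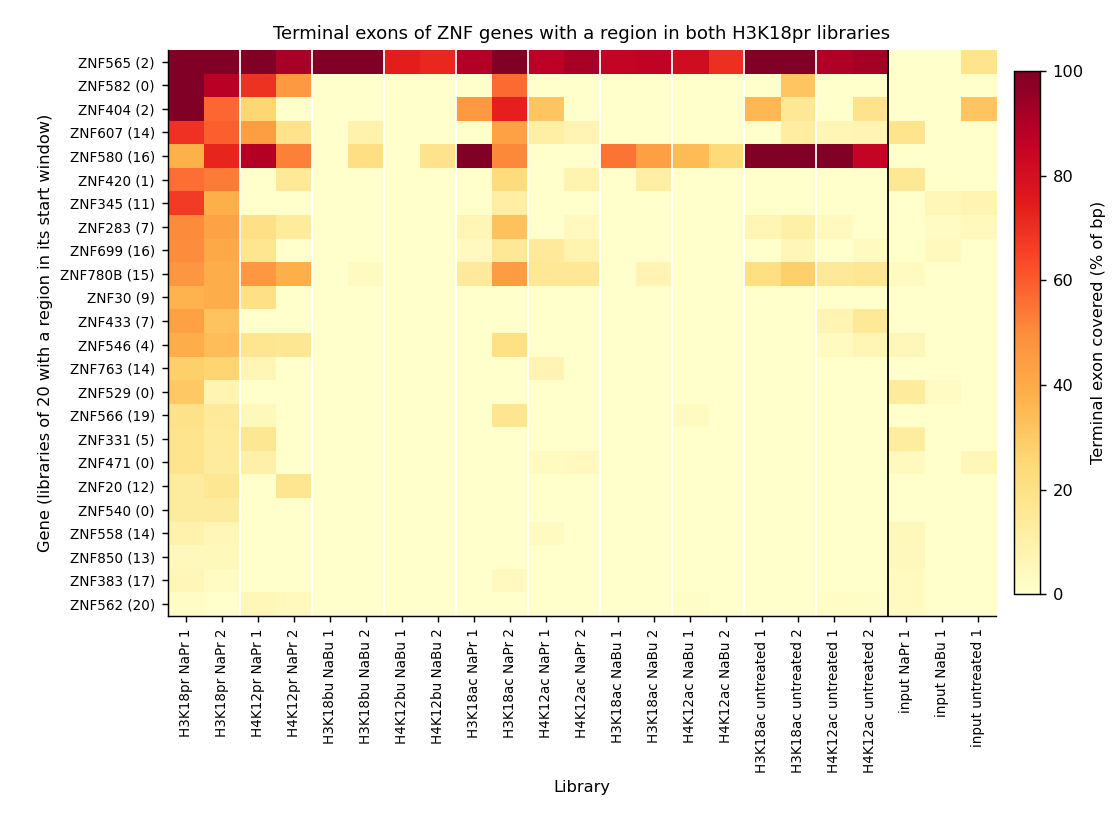
Percentage of the terminal exon covered by regions (colour) in the 24 ZNF genes with a region there in both H3K18pr libraries (rows, with the number of libraries marked at the start in brackets), in 20 immunoprecipitated libraries and 3 inputs (columns, right of the black line). Rows were chosen by the first 2 columns; ZNF565 is dark in all 20 libraries, and ZNF582, with 0 marked starts, is dark in H3K18pr, H4K12pr replicate 1 and H3K18ac NaPr replicate 2.

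The genes whose products act with KRAB proteins were read in the same way. Of 15 genes of the KRAB silencing machinery, 14 had a start region in both replicates of H3K18ac and of H4K12ac in untreated cells. The count was 11 in H3K18pr, 11 in H4K12pr, 2 in H3K18bu and 3 in H4K12bu. Other chromosome 19 genes, read as a mean share per library and not in both replicates, also stood highest in untreated acetylation. They were lowest in the butyryl groups, where H3K18bu lay above H4K12bu, the reverse of the 15 genes. Their mean share per library was 72.6% and 66.6% in untreated H3K18ac and H4K12ac. It was 54.0% and 63.1% in the propionyl groups, and 20.4% and 11.5% in the butyryl ones, H3K18 first. The median protein-coding gene was marked in 10 libraries. Whether the 15 genes differ from other genes was not tested. The corepressor TRIM28 was marked in 17 libraries and the methyltransferase SETDB1 in 15. CBX5, which encodes HP1 alpha, and DNMT1, the maintenance DNA methyltransferase, were marked in all 20. UHRF1, the partner of DNMT1, was marked in none. These values are for the outermost annotated start, and canonical starts are not given here for these genes. ZNF274, the member that recruits this machinery to other ZNF genes, had 19. Among 19 chromosome 19 zinc finger genes with other names, MZF1 was marked in all 20 libraries, ZFP82, ZIM3 and ZSCAN1 in none, and the median gene in 4.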

How the data were processed

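ChIP-seq peak lists of 20 immunoprecipitated and 3 input libraries of SW480 cells were used. Per the labels and the study's methods, the authors trimmed reads with cutadapt 1.8.1, aligned them to hg38 with Bowtie2 2.3.1 and called narrow peaks with MACS2 2.1.0 in each library at p 0.01, with blacklisted regions removed. The deposited lists give a fold enrichment (a ratio over local background) and a −log10 p and q for each region. Genes came from GENCODE 44. Start windows, merged body bp and terminal exons of canonical transcripts were intersected with regions in Python 3.11.15 (numpy 2.4.6, pandas 2.3.3). Libraries were grouped by their labels and assigned to runs by the date tag in their list names. Tests were exact permutations over libraries, tested on simulated data, with Benjamini-Hochberg adjustment over 13 tests. Alternatives were q under 0.05, equal numbers of regions, input regions removed, other genes of 10 to 40 kb, summits, and each library left out. Named genes were 7 of known function or promoter methylation, those marked in all or no libraries, one-sided at starts, or most covered in the propionyl libraries. Members and lists were chosen with earlier results of these data known. Amino acid sequences were not used here. All 23 lists were used.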

Additional observations from a re-analysis of the deposited data

Results flagged for a closer look

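In 4 families of comparisons every library of one pair moved one way and every library of another pair the opposite way. None of these differences between pairs was tested. For the members' 3' segment share, set against other chromosome 19 genes, butyryl exceeded acetyl H4K12 in NaBu cells by 3.30 points. Propionyl lay below acetyl H4K12 in NaPr cells, with a difference of -8.29 points. In the H4K12bu replicates ZNF565 alone held 82.2% and 64.1% of the members' covered bases in that segment. For H3K18 against H4K12, the same share was 15.7 points higher in H3K18pr than in H4K12pr, and the difference was -4.14 points in NaBu acetylation.

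For the body coverage of members relative to other genes, NaBu against untreated acetylation gave 0.36 on the log2 scale at H4K12 and -0.21 at H3K18. H3K18 against H4K12 gave 0.55 for the propionyl pair and 0.082 for untreated acetylation, but -0.66 for the butyryl pair and -0.49 for NaBu acetylation. The NaBu libraries share a run, and the shortest lists are among them.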

How the results depend on the processing

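The lower body coverage of members kept its direction and stayed past the threshold in every alternative except against ZNF genes on other chromosomes, where it was -0.063. It lay between -1.62 and -1.54 with single libraries left out, at -1.68 without input regions and at -1.32 as a mean over genes. With 8158 regions in every list, members' starts gave -0.25, the 3' segment share 15.7 points, and H3K18 against H4K12 -0.37 at starts and -0.47 in bodies, all then past the threshold, and NaBu against untreated turned to 0.078 at starts and -0.21 in bodies. One-sided members then numbered 11 for H4K12pr against acetyl, 16 for H3K18bu, 5 for H4K12bu (also 5 with q under 0.05), 18 for H4K12ac with NaPr, 12 for H3K18ac with NaBu and 15 for H4K12ac with NaBu. Without input regions the 3' segment share turned to -1.26 points, its acyl against acetyl difference to -1.47 and NaBu at starts to 0.079, and H3K18 against H4K12 at starts passed at -0.22. Starts passed at -0.17 against genes of 10 to 40 kb and turned to 0.094 with canonical starts. Acyl against acetyl at starts turned to 0.45 in percentage points. Against ZNF genes elsewhere, it turned to 0.040 at starts, 0.24 in bodies and -1.13 points at the 3' end, H3K18 against H4K12 to 0.20 in bodies, NaPr to -0.11 at starts and -0.22 in bodies, and NaBu to 0.14 at starts. The cause of these changes was not tested.

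With single libraries left out, members' starts ranged from -0.097 to -0.0097 and the 3' segment share from 2.35 to 4.69 points. Acyl against acetyl ranged from -0.24 to -0.020 at starts, -0.21 to -0.0074 in bodies and 1.05 to 6.90 points. H3K18 against H4K12 ranged from -0.25 to -0.079, -0.19 to -0.027 and 0.90 to 5.58 points. NaPr ranged from 0.013 to 0.050 at starts and -0.024 to 0.38 in bodies, and NaBu from -0.067 to 0.0023 and -0.0051 to 0.15. One-sided totals ranged from 18 to 37 for H3K18pr, 89 to 97 for H4K12pr, 66 to 98 for H3K18bu, 16 to 67 for H4K12bu, 8 to 43 and 87 to 107 for NaPr, and 22 to 47 and 65 to 114 for NaBu, each at H3K18 and H4K12 in turn, with 22 for H3K18pr without H3K18ac NaPr replicate 1.

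The main tests did not pair libraries by replicate number. Correlations of same-numbered deviations lay between -0.076 and 0.072 in 13 strata. With 2 replicates a group, these correlations cannot show whether same-numbered libraries came from the same chromatin. With the replicate number as a block, H3K18 against H4K12 at starts kept -0.17 at an exact permutation p of 0.0273 (adjusted p = 0.178), and no call changed. Read depth is unknown, so a start without a region may lack the mark or lack reads.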
